A study of Mus musculus with 2 samples.

Results

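The 38 genes described here encode the subunits of the intraflagellar transport (IFT) complexes, the dynein that drives their return, and the BBSome with its assembly factors and partners. They were taken from the whole array by name: a probe belonged to the set where its gene name was 1 of the 38 symbols or a former symbol of it. All 38 genes were on the array, with 86 probes, and all 38 gave a ratio, of 17319 named genes that did. In the files, 7 of the 86 probes still carried a former symbol. The set was divided into IFT-A (5 genes), the IFT-B1 core (11 genes), the peripheral IFT-B2 (6 genes), the retrograde motor dynein-2 (4 genes), the BBSome core (7 genes), the chaperonin-like Bardet-Biedl syndrome (BBS) proteins (3 genes) and the BBSome partners Arl6 and Lztfl1 (2 genes).

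The series sought targets that act downstream of FOXJ1, the forkhead factor that switches on motile cilia, and compared fetal lung epithelium of mouse at embryonic day E18.5 with that at E14.5. Both groups were wild-type male fetuses of the outbred CD-1 stock, with no transgene or treatment, and each was 1 whole lung from which the epithelium of airways inside the lobes was cut by laser out of stained frozen sections of 10 µm. From each age 100 ng of total RNA was amplified and labelled, E18.5 with Cy5 (red) and E14.5 with Cy3 (green), and both were hybridised to 1 oligonucleotide array. There were no replicates and no dye swap, so every value below compares 1 sample with 1 sample, age and dye cannot be told apart, and no p-value was computed. The depth of an array is its signal: of the 41170 probes, 78.7% stood well above background at E18.5 and 75.2% at E14.5, with median background-subtracted signals of 308 at E18.5 and 256 at E14.5. The spreads that could be measured were technical, an SD of 0.05 in the log2 ratio over repeated spots (median of 245 probes) and an SD of 0.33 between different probes of a gene (median of 6891 genes).

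A cilium is built and kept up by trains of IFT proteins that run along its microtubules between the outer membrane and the axoneme. Kinesin-2 carries the trains to the tip, with IFT-B holding tubulin and other cargo, and dynein-2 together with IFT-A carries them back to the base. The BBSome is a coat-like complex that rides on the trains and takes membrane proteins out of the cilium. In airway epithelium these genes serve both the single primary cilium of progenitor cells and the many motile cilia of multiciliated cells.

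Most of the set was higher at E18.5 than at E14.5. In such bulk RNA, more cells of a type and more RNA per cell cannot be told apart. By a call of 2-fold or more on the probe used for each gene (the brightest probe above background), 25 of 38 genes were higher, 1 was lower and 12 lay within 2-fold. Over all 17319 genes, 17.2% were called higher and 10.0% lower. The members' log2 ratios of E18.5 over E14.5 had a median of 1.22 and a range of -1.01 to 2.66, where all genes had a median of 0.06. Above 0 were 35 of 38 members, against 54.1% of all genes, and 13 members stood above the 90th percentile of all genes. Among the 10378 genes with a mean intensity of 1000 or more, a limit chosen after the values were seen, 18.7% were called higher and 12.2% lower, and the median was 0.05. Of the 36 members in that range, 23 were called higher and 1 lower, with a median of 1.22.

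The counts differed between the complexes. All 4 dynein-2 genes were called higher, as were 4 of 5 IFT-A genes, 8 of 11 IFT-B1 genes, 4 of 6 IFT-B2 genes and 5 of 7 BBSome core genes. None (0) of the 3 chaperonin-like genes and none (0) of the 2 partners was called higher. Beside the 17.2% of all genes called higher, 0 of so few genes is no departure. With median centring in place of loess both partners were called higher. The 1 member called lower, Mkks, is chaperonin-like. The median log2 ratios were 1.78 for dynein-2, 1.24 for IFT-A, 1.34 for IFT-B1, 1.33 for IFT-B2, 1.21 for the BBSome core, -0.51 for the chaperonin-like genes and 0.93 for the partners. IFT and dynein-2 together had 20 of 26 genes higher and a median of 1.37, and the 12 BBS genes had 5 higher, 1 lower and a median of 0.95. These differences between complexes were not tested.

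**Figure D1:**
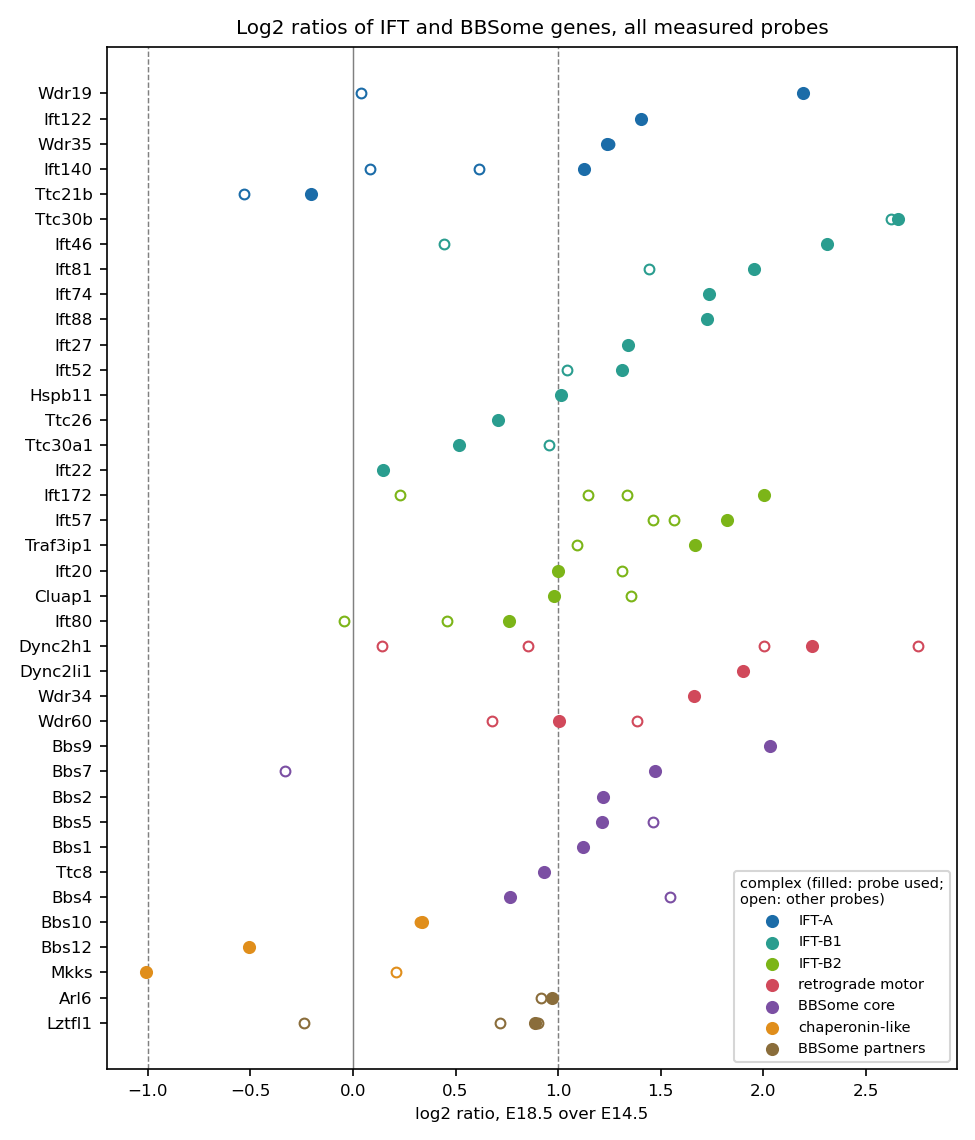
Log2 ratio of E18.5 over E14.5 (horizontal axis) for each of the 38 genes, ordered within its complex. Filled points are the probe used, open points the other probes well above background at both ages, and dashed lines mark 2-fold; all dynein-2 points used lie at or past 2-fold higher, and Mkks at -1.01 is the lowest filled point.

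Several members lay close to the 2-fold limit. Just inside it were Ift20 (1.00), Wdr60 (1.00), Hspb11 (1.01), Bbs1 (1.12) and Ift140 (1.13) on the higher side and Mkks (-1.01) on the lower side. Just outside were Cluap1 (0.98), Arl6 (0.97), Ttc8 (0.93) and Lztfl1 (0.89). All of these log2 ratios lie within 0.15 of the limit, which is less than the usual SD between probes of a gene.

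The promoters of the set were read from RefSeq (assembly GRCm38.p6), as windows from 250 bases before to 50 bases after the gene's start. The table held 33 of the 38 members, and Dync2li1, Ift122, Ift80, Ift81 and Ttc30b were not matched. RFX transcription factors, known from several animals as regulators of ciliary genes, bind the X-box, in which GTTNCC and GGNAAC face each other. Searched on both strands with 0 to 3 bases between the arms, this pair occurred in 4 of 33 member windows (12.1%), against 0.936% of 27025 windows in all and 1.05% of the 13678 windows of genes with a ratio. The 4 genes were Bbs7 and Ift57, called higher with log2 ratios of 1.47 and 1.83, and Lztfl1 and Ttc26, within 2-fold at 0.89 and 0.71. Their 250 bases before the start are shown, with the pair and every GTTGCC or its complement in capitals.
Bbs7 (chr3:36613390-36613639, minus strand): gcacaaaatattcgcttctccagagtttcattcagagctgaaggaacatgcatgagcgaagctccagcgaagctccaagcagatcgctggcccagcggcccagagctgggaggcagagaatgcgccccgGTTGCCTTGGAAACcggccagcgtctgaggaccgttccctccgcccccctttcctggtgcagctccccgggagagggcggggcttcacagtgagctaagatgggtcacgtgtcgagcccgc
Ift57 (chr16:49699044-49699293, plus strand): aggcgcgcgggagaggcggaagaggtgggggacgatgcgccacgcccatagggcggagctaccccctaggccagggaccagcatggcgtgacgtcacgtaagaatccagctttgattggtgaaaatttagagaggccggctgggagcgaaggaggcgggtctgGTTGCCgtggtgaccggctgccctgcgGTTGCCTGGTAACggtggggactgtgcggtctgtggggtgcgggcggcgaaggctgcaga
Lztfl1 (chr9:123717626-123717875, minus strand): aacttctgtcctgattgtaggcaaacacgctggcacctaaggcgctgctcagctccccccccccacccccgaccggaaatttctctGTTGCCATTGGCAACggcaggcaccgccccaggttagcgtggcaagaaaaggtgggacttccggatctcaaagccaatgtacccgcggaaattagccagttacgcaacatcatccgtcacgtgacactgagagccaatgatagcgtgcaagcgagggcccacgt
Ttc26 (chr6:38381274-38381523, plus strand): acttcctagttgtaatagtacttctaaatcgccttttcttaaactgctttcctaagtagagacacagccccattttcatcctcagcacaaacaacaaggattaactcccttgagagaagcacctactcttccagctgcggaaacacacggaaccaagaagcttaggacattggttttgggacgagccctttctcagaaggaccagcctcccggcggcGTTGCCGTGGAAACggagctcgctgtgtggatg

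The arm GTTGCC alone, searched on both strands and so also counted inside such pairs, was in 13 of 33 member windows (39.4%), against 14.1% of all windows (3821) and 14.7% of those of genes with a ratio. It was in 11 of the 21 matched members called higher (52.4%) and in 2 of the 12 other matched members (16.7%), which are Lztfl1 and Ttc26. The facing pair was in 2 of the 21 (9.52%) and 2 of the 12 (16.7%). The split by call was not made over all genes, and a link between motif and call was not tested. By complex GTTGCC occurred in 9 of 21 IFT and dynein-2 windows (42.9%) and 4 of 12 BBS windows (33.3%). The list of motile axoneme genes set beside the members had it in 10 of 19 windows (52.6%) and the facing pair in none (0). A match describes letters only, and binding was not measured here. The 9 members that hold GTTGCC without the facing pair were all called higher, and the 30 bases around the match are shown for each, with the match in capitals.
Ift140 (chr17:25015965-25015994, plus strand): gcgtgttgtgacGGCAACctcgcgcccttg
Wdr35 (chr12:8974021-8974050, plus strand): gatgcgactgggcggcggtgGTTGCCaggc
Ift27 (chr15:78174073-78174102, minus strand): gggttgatgatgGTTGCCaggagcctgttt
Ift88 (chr14:57424080-57424109, plus strand): ggagtcgcgcctGGCAACggctgggcgtcc
Traf3ip1 (chr1:91494577-91494606, plus strand): gggcgcgcgtccGTTGCCaaggccgcgcgg
Ift172 (chr5:31291097-31291126, minus strand): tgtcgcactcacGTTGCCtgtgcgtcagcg
Dync2h1 (chr9:7177009-7177038, minus strand): catagcgacggagcttGGCAACtgctgagt
Bbs1 (chr19:4906609-4906638, minus strand): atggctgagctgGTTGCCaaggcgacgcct
Bbs5 (chr2:69647191-69647220, plus strand): gatgtcgtgacaaagccggcgcGTTGCCtt

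Forkhead factors such as FOXJ1 bind sites of the type GTAAACA, and the shorter TAAACA is part of it. GTAAACA was in 0 of 33 member windows, against 4.05% of all windows and 3.42% of those of genes with a ratio. TAAACA was in 3 of 33 (9.09%), those of Ift88, Lztfl1 and Wdr34, against 15.1% of all windows and 11.8% of those of genes with a ratio. In the motile axoneme list GTAAACA was in 2 of 19 windows (10.5%) and TAAACA in 4 of 19 (21.1%). With shares this low, the counts in 33 windows do not set the members apart from other genes. The windows say nothing of sites farther away.

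IFT-A carries the retrograde trains and, with TULP3, brings receptors into the cilium. Wdr19 (IFT144), a core subunit, had a normalized intensity of 57368 at E18.5 and 12533 at E14.5, a 4.58-fold higher value (log2 ratio 2.19). Ift122, another core subunit, had 20688 at E18.5 and 7820 at E14.5, 2.65-fold higher (1.40). Wdr35 (IFT121), which joins the core to the peripheral subunits, had 12921 at E18.5 and 5483 at E14.5 (1.24). Its other probe gave almost the same log2 ratio, 1.25. Ift140, the remaining core subunit of the list, had 13311 at E18.5 and 6099 at E14.5 (1.13). Ttc21b (IFT139), a peripheral subunit, was the exception in this complex, with 1111 at E18.5 and 1278 at E14.5 (-0.20). Its other probe was at -0.53, and it was the 1 gene among the 24 members with several measured probes whose probes were all below 0.

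IFT-B1 is the core of the anterograde train. Ttc30b, a form of IFT70, had 27006 at E18.5 and 4278 at E14.5, and its 6.31-fold higher intensity (log2 ratio 2.66) was the largest ratio among the probes used for the 38 genes. Its other probe gave 2.62, but the 2 probes share 40 of their 60 bases and are not independent. The second IFT70 gene on the array, Ttc30a1, had 5250 at E18.5 and 3670 at E14.5, a log2 ratio of 0.52, with 0.96 by its other probe. The Ttc30a1 and Ttc30b probes share no run longer than 6 bases. Whether either also binds the RNA of the other gene, or of their paralog Ttc30a2, was not tested, so these values are uncertain as those of 1 gene. The genes lie on chromosome 2 of mm8, the probes used at chr2:75780035-75780094 for Ttc30a1 and chr2:75737090-75737149 for Ttc30b, both on the minus strand.

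Ift81 and Ift74 form a coiled-coil pair whose ends bind tubulin, and both were called higher. Ift81 had 17734 at E18.5 and 4576 at E14.5 (1.95, other probe 1.44), and Ift74 had 7638 at E18.5 and 2296 at E14.5 (1.73). Ift46, known in Chlamydomonas for the transport of outer dynein arms, had 62302 at E18.5 and 12569 at E14.5, 4.96-fold higher (2.31). Its other probe, at 305 at E18.5 and 224 at E14.5, gave 0.45. Ift88, the subunit affected in the Tg737 mouse with polycystic kidneys, had 6477 at E18.5 and 1961 at E14.5 (1.72), from a probe that crosses an exon junction. Ift52, which binds Ift88, had 21153 at E18.5 and 8515 at E14.5 (1.31, other probe 1.05).

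The small GTPase Ift27 and its partner Hspb11 (IFT25) take part in the exit of the BBSome from cilia. Ift27 had 29218 at E18.5 and 11536 at E14.5 (1.34), and Hspb11 had 24079 at E18.5 and 11931 at E14.5, just past 2-fold (1.01). Both were called higher, each from 1 measured probe. Ttc26 (IFT56), known in zebrafish for motile cilia, lay within 2-fold with 3998 at E18.5 and 2448 at E14.5 (0.71). Ift22, a Rab-like GTPase, was nearly level with 3729 at E18.5 and 3365 at E14.5 (0.15). It had 1 probe, so no second measurement of it exists on the array.

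IFT-B2 sits at the edge of the train, where it meets kinesin-2. Ift172, the largest IFT protein, had 55426 at E18.5 and 13824 at E14.5, a 4.01-fold higher value. Ift57 had 35023 at E18.5 and 9876 at E14.5 (1.83), with 1.46 and 1.57 by its other measured probes. All 3 measured Ift57 probes were thus past 2-fold. Traf3ip1 (IFT54), which also binds microtubules, had 12333 at E18.5 and 3887 at E14.5 (1.67, other probe 1.09). Ift20, the subunit also found at the Golgi, had 40317 at E18.5 and 20133 at E14.5 (1.00, other probe 1.31). Cluap1 (IFT38) lay just within 2-fold by the probe used, with 20799 at E18.5 and 10542 at E14.5 (0.98), and past it by the other (1.35). Ift80 was within 2-fold by all its probes, with 14780 at E18.5 and 8728 at E14.5 (0.76) and with 0.46 and -0.04 by dimmer probes.

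Dynein-2 returns the trains to the cell body, and its 4 listed genes were all called higher. Dync2h1, the heavy chain, had 20128 at E18.5 and 4265 at E14.5, 4.72-fold higher (2.24). Dync2li1, the light intermediate chain that steadies it, had 14009 at E18.5 and 3744 at E14.5 (1.90) from a probe across an exon junction. The intermediate chains differed. Wdr34 had 19594 at E18.5 and 6194 at E14.5 (1.66). Wdr60 had 8866 at E18.5 and 4421 at E14.5 (1.00), with 1.38 and 0.68 by its other probes.

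The BBSome core forms the coat of β-propeller and helical repeat proteins. Bbs9, a β-propeller subunit, had 11419 at E18.5 and 2787 at E14.5, 4.10-fold higher (2.03). Its other probe was well above background at E18.5 only, with 101 at E18.5 and 94 at E14.5. Bbs2, which pairs with Bbs7, had 4102 at E18.5 and 1760 at E14.5 (1.22). Bbs5, the subunit with pleckstrin-like domains that bind phosphoinositides, had 8425 at E18.5 and 3634 at E14.5 (1.21, other probe 1.47). Bbs1, the subunit that binds Arl6, was called higher from a dim probe with 356 at E18.5 and 163 at E14.5 (1.12). Bbs7 was also dim, with 800 at E18.5 and 288 at E14.5 (1.47). Its other probe went the other way, with 109 at E18.5 and 138 at E14.5 (-0.33), so that the Bbs7 call rests on 1 of 2 probes.

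The TPR-repeat subunits of the BBSome lay within 2-fold. Ttc8 (BBS8) had 8547 at E18.5 and 4478 at E14.5 (0.93). Bbs4 had 6630 at E18.5 and 3905 at E14.5 (0.76), while its exon-junction probe, with 1463 at E18.5 and 501 at E14.5, gave 1.55. Bbs4 thus changes its call with the probe.

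The chaperonin-like proteins Mkks (BBS6), Bbs10 and Bbs12 assemble the BBSome together with the CCT chaperonin and are not part of the finished complex. Mkks had 2057 at E18.5 and 4143 at E14.5, a 2.01-fold lower value (-1.01). Its other probe, 11394 bases nearer the 3′ end in the genome, had 2047 at E18.5 and 1767 at E14.5 (0.21). The 2 Mkks probes therefore disagree in sign, and share no run of more than 7 bases. Bbs12 had 1186 at E18.5 and 1683 at E14.5 (-0.51). Bbs10 had 3735 at E18.5 and 2955 at E14.5 (0.34), with 0.33 by a probe that overlaps it by 40 bases. No measured probe of these 3 genes was 2-fold or more higher.

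Of the partners, Arl6 (BBS3) is the GTPase that brings the BBSome to membranes, and Lztfl1 limits its entry into the cilium. Arl6 had 12585 at E18.5 and 6417 at E14.5 (0.97, other probe 0.92). Lztfl1 had 19055 at E18.5 and 10301 at E14.5 (0.89). Its 3 other probes gave 0.90, 0.72 and -0.24. Both partners thus stayed within 2-fold in every measured probe.

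**Figure D2:**
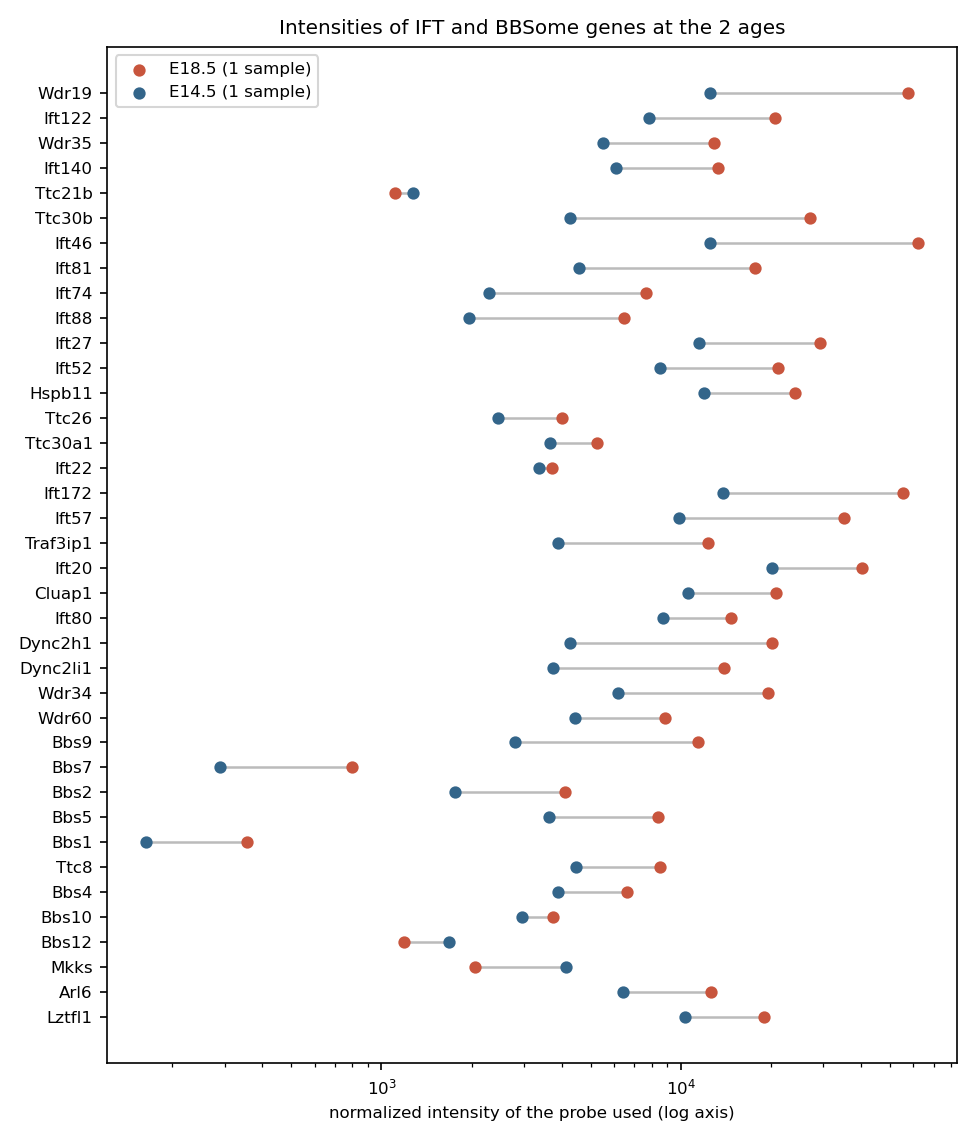
Normalized intensity (horizontal log axis) at E18.5 and at E14.5, 1 sample each, of the probe used for each of the 38 genes. The E18.5 point lies to the right of the E14.5 point in 35 genes and to the left in Ttc21b, Bbs12 and Mkks; intensities of different probes are not comparable as levels.

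How far the ratio of a gene held across its probes was checked over all 86 probes. At both ages 73 of them were well above background, 4 were so at E18.5 only, 0 at E14.5 only and 9 at neither age. Of the 73, 66 had a log2 ratio above 0 and 7 below, and 41 were 2-fold or more higher and 1 lower. These counts of probes were not made over the whole array, so no share stands beside them. Among the 24 members with several measured probes, 8 were 2-fold or more higher in every one, against 7.34% of the 6891 genes with several such probes, and 0 were 2-fold or more lower in every one, against 4.6%. The 8 were Wdr35, Ift52, Ttc30b, Ift81, Ift20, Traf3ip1, Ift57 and Bbs5. Every measured probe was above 0 in 19 of the 24, and probes of both signs occurred in 4, Ift80, Bbs7, Mkks and Lztfl1. Over all genes with several probes, 65.7% had probes of 1 sign, in either direction. The members of that kind are the 19 above 0 together with 1, Ttc21b, below 0 in every measured probe. The share of all genes with every probe above 0 was not computed. The other 14 members had 1 measured probe each.

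The position of the probes was set against their ratios in 7 genes, chosen after the values were seen. The 4 Ift172 probes had log2 ratios of 2.0, 1.34, 1.15 and 0.23 from the most 3′ probe upstream, over 10145 bases of genome, and their E18.5 intensities were 55426, 11444, 1943 and 152. Wdr19 gave 2.19 at its most 3′ probe and 0.04 at a dim probe 16002 bases upstream (257 at E18.5, 249 at E14.5). The other 2 Wdr19 probes were not well above background at either age. Ift140 gave 1.13, 0.62 and 0.08 in the same order. Dync2h1 did not follow that order: its 5 measured probes, from the most 3′ one upstream, gave 2.24, 2.01, 0.85, 2.76 and 0.14. The 2.76 came from a probe 155645 bases upstream with 8101 at E18.5 and 1198 at E14.5. The 0.85 and 0.14 came from dimmer probes, with 592 and 129 at E18.5 and 328 and 117 at E14.5. Ift46 ran the opposite way, with 0.45 at its most 3′ probe and 2.31 at the probe 1826 bases upstream. Mkks had 0.21 at its most 3′ probe and -1.01 at the probe 11394 bases upstream, and Bbs7 had 1.47 and, 32077 bases upstream, -0.33. No single order of ratio along the transcript thus held over these 7 genes. As they were chosen with their values known, they do not show how usual either order is among the members. Both orders also occurred outside the 7. Ift80 fell from 0.76 at its most 3′ probe to -0.04 at the farthest, and Bbs4 rose from 0.76 to 1.55. A link between position and ratio was not tested over all members.

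**Figure D3:**
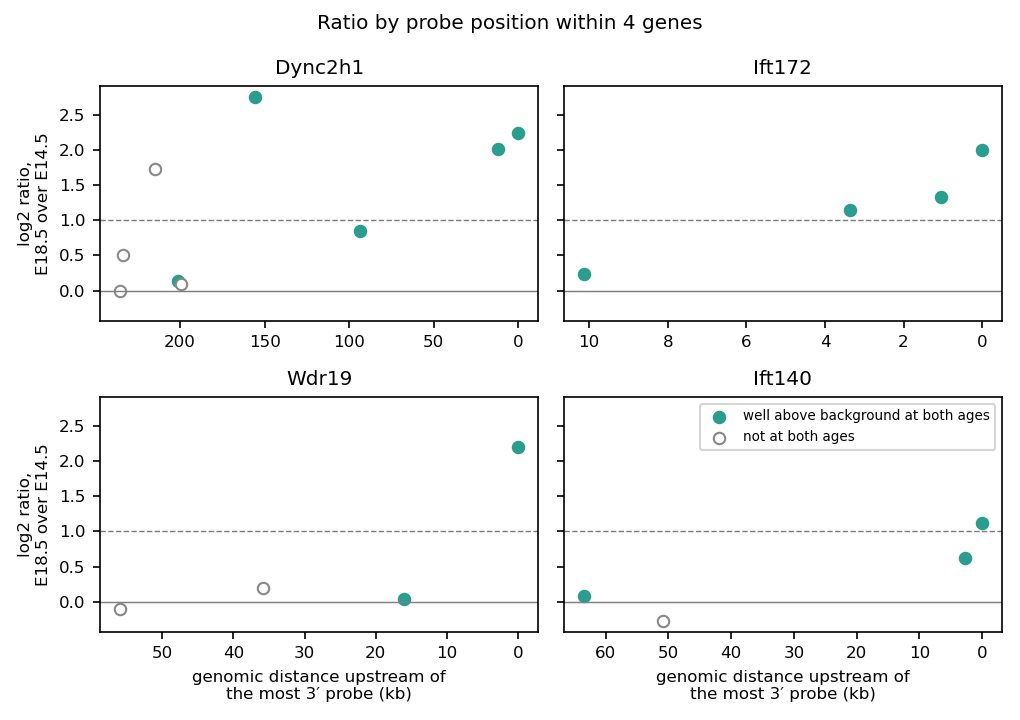
Log2 ratio of E18.5 over E14.5 (vertical axis) against the genomic distance of each probe upstream of the gene's most 3′ probe, in kb (horizontal axis, 3′ end at the right), for Dync2h1, Ift172, Wdr19 and Ift140. Filled points were well above background at both ages and open points were not; the Ift172 ratio is 2.0 at the 3′ end and 0.23 at the probe farthest from it, while Dync2h1 has 2.76 at the probe 155645 bases upstream.

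Brightness and annotation of the probes went with the ratio. Among the measured probes, split at a mean intensity of 500 (a limit set once the values were known), the 54 at or above it had a median log2 ratio of 1.28, and 36 of them were 2-fold or more higher. The 19 dimmer ones had a median of 0.46, and 5 were 2-fold or more higher. With plain background subtraction, which adds no offset, these medians were 1.29 and 0.52. Probes designed on RefSeq transcripts numbered 65, of which 59 were measured at both ages and 38 were 2-fold or more higher (median 1.22). Of the 21 designed on cDNA clones or other records, 14 were measured and 3 were 2-fold or more higher (median 0.48). In 19 of the 27 members with several probes the probe used was the most 3′ one. The same splits were not made over all probes of the array. Whether the position, the brightness or the kind of transcript record sets these differences was not tested.

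A probe that crosses an exon junction reads spliced RNA. Of 19 such member probes 14 were measured at both ages, and 11 of these were 2-fold or more higher. Junction probes of other genes were not counted, so it is not known how usual this share is. The 3 measured member probes below that limit were both Arl6 probes (0.97 and 0.92) and the dimmer Bbs7 probe (-0.33). The 60 bases of 6 of the 11 are shown, as examples, chosen with their values known, from IFT-B1, IFT-B2, dynein-2 and the BBSome core: Ift88 (1.72), Ift57 (1.57), Ift172 (1.34), Dync2h1 (2.01), Bbs7 (1.47) and Bbs4 (1.55). Coordinates are the deposited ones on mm8 and span the intron between both exon parts. No base is in capitals here.
Ift88 (chr14:56471159-56471463, plus strand): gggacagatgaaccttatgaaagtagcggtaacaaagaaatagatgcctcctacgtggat
Ift57 (chr16:49656386-49678045, plus strand): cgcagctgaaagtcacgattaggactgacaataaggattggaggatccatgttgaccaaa
Ift172 (chr5:31530884-31531027, minus strand): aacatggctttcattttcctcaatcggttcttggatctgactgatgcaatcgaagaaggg
Dync2h1 (chr9:6941673-6955934, minus strand): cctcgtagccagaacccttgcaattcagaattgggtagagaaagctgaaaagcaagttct
Bbs7 (chr3:36767178-36767331, minus strand): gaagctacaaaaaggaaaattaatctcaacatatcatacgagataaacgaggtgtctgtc
Bbs4 (chr9:59122182-59122852, minus strand): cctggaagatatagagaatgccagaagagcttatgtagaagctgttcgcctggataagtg

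The pathway around the set was read from 3 further lists. Of the kinesin-2 genes, which drive the trains outward, 1 of 4 was called higher, beside 17.2% of all genes, and the median was 0.21. A difference of so few genes from the trains was not tested. The 1 called higher was the motor subunit Kif3b, with 1881 at E18.5 and 813 at E14.5 (1.21). Its partner Kif3a had 3282 at E18.5 and 2570 at E14.5 (0.35), and the linker Kifap3 had 15791 at E18.5 and 15031 at E14.5 (0.07). Kif17, a homodimeric kinesin, was dim, with 112 at E18.5 and 113 at E14.5 (-0.02). The other measured probes reached 0.88 for Kif3a and 1.32 for Kifap3, past 2-fold, and 0.74 for Kif3b, so the calls of Kifap3 and Kif3b and the median depend on the probe used.

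The list of further subunits, paralogs and dynein light chains had 10 genes with a ratio and a median of 1.02. Of these, 5 were called higher and 1 lower, beside 17.2% and 10.0% of all genes. Dynlrb2, a roadblock light chain, had 150750 at E18.5 and 10719 at E14.5, 14.1-fold higher (3.81). Its paralog Dynlrb1 had 18451 at E18.5 and 27892 at E14.5 (-0.60). Ttc21a, the paralog of Ttc21b, had 2676 at E18.5 and 207 at E14.5, 12.9-fold higher (3.69). In both of these pairs of paralogs 1 gene was more than 10-fold higher while the other was below 0. The lowest of the list was the light chain Dynll2, with 7094 at E18.5 and 23694 at E14.5 (-1.74). Ift43 and Bbip1, named because they complete IFT-A and the BBSome, had log2 ratios of 1.08 and 0.11. The other measured probe of Bbip1 gave 0.77.

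Of 14 genes for ciliary cargo, gate and signalling factors, 1 was called higher and 2 lower, beside 17.2% and 10.0% of all genes, and the median was 0.29. The difference from the trains was not tested. Tulp3, the adaptor that IFT-A carries, was the 1 higher gene by the probes used, with 9546 at E18.5 and 3897 at E14.5 (1.29). Arl13b had 0.65 by the probe used and up to 2.14 by its other measured probes, so its call depends on the probe. Ccdc28b, a BBS modifier, came after Tulp3 with 0.97, and with 0.10 by its other probe. The lowest were Kif7, a kinesin of Hedgehog signalling, with 443 at E18.5 and 2697 at E14.5 (-2.61), and the ubiquitin ligase Trim32 (BBS11) with 3061 at E18.5 and 7719 at E14.5 (-1.33, other probe -0.18).

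Genes of the motile axoneme gave larger ratios than the trains. Of the 22 with a ratio, 21 were called higher, the median was 3.99 and the range 0.29 to 6.85. The highest was Sntn, of the tip of motile cilia, with 11699 at E18.5 and 102 at E14.5. Next by the probe used came the outer arm dynein Dnah9 with 25284 at E18.5 and 769 at E14.5 (5.04). The other measured Dnah9 probe gave 0.16, and the lowest measured probe of Dnah5 gave 0.23, against 4.78 by the probe used. These 2 genes thus depend on the probe, while Spag16, Spag17, Tekt1, Ccdc39 and Cfap43 were past 2-fold higher in every measured probe. The lowest were the radial spoke gene Rsph1 with 7941 at E18.5 and 1147 at E14.5 (2.79) and Spag6, whose probe was dim with 126 at E18.5 and 103 at E14.5 (0.29). The largest ratio among the probes used for the IFT and BBSome set, that of Ttc30b, was thus smaller than those of 21 axoneme genes. Among 7 transcription factors, Foxj1 had 22922 at E18.5 and 5039 at E14.5 (2.19), and it was the 1 called higher. Of the RFX factors, Rfx2 had 1572 at E18.5 and 932 at E14.5 (0.75). Rfx3 had 1031 at E18.5 and 1340 at E14.5 (-0.38), with up to 0.52 by its other measured probes. Rfx7 was at 0.38 (lowest probe -0.39), and Rfx4, from a dim probe, at 0.32. Rfx1 had 3144 at E18.5 and 5149 at E14.5 (-0.71, other probe -0.01). Rfx5, the 1 called lower, had 423 at E18.5 and 914 at E14.5 (-1.11). Its other probe gave -0.41, so the Rfx5 call depends on the probe used.

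**Figure D4:**
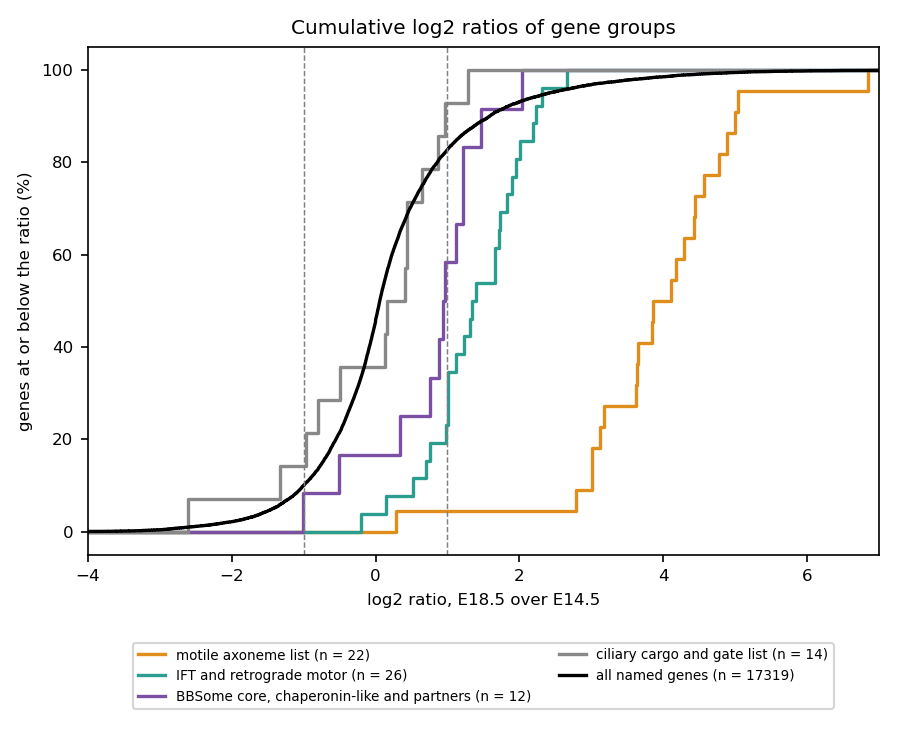
Share of genes in percent (vertical axis) at or below each log2 ratio of E18.5 over E14.5 (horizontal axis) for the motile axoneme list, IFT with dynein-2, the BBS genes, the ciliary cargo and gate list and all named genes. The IFT and dynein-2 curve (median 1.37) and the BBS curve (median 0.95) lie right of all genes (median 0.06) and left of the axoneme list (median 3.99), and the cargo list (median 0.29) stays near all genes.

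Markers of the dissected tissue and of other cell types were read from the same array. All 10 airway epithelium markers were well above background at both ages, and they had 4 genes called higher and none (0) lower (median 0.49), from Epcam at -0.75 to Krt18 at 1.59, with summed intensities of 529445 at E18.5 and 334004 at E14.5. All 8 genes of dividing cells were called lower by the probe used (median -3.17), with summed intensities of 26971 at E18.5 and 237226 at E14.5. Among them Top2a, at -2.59, gave -0.09 by another measured probe, so its call depends on the probe. Leukocyte markers were called higher in 6 of 9 (median 1.72), with 170341 at E18.5 and 8306 at E14.5. Most of the E18.5 sum came from Lyz2 (146915 at E18.5 and 1769 at E14.5), which lung epithelium also expresses. The others called higher were Ptprc (3.21), Cd14 (2.71), Tyrobp (2.08), Csf1r (1.72, lowest probe -0.02) and Fcer1g (1.62), while Cd68, Itgam and Laptm5 were not. Ptprc, the common leukocyte marker, had 1365 at E18.5 and 148 at E14.5, and Itgam was not well above background at E14.5. Endothelial markers were called higher in 3 of 8 (median 0.77), with 103313 at E18.5 and 15535 at E14.5, most of the E18.5 sum from Kdr (71669 at E18.5 and 4090 at E14.5). Mesenchymal markers were called higher in 0 of 11 with 3 lower (median -0.24), with 447512 at E18.5 and 517652 at E14.5. Erythroid markers had 2 higher and 3 lower of 6 (median -0.78), with 232622 at E18.5 and 78925 at E14.5, most of it from Hba-a1 (223583 at E18.5 and 42355 at E14.5). Mesothelial and nerve markers had 2 higher of 5 (median 0.13), with 46980 at E18.5 and 7683 at E14.5, most of it from Msln (43592 at E18.5 and 4975 at E14.5). The summed intensities of the 38 members were 634154 at E18.5 and 228487 at E14.5, and those of the axoneme list 488506 at E18.5 and 33780 at E14.5. The part of these cell types in the members' ratios was not tested.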

How the data were processed

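Gene expression was measured in laser-dissected airway epithelium of 1 fetal lung at E18.5 and 1 at E14.5, together on 1 two-colour array; groups come from the sample titles. The scanner tables deposited for both samples were identical in 115 of 115 columns and were read as 1 array, red for E18.5 and green for E14.5 per the labels. They hold linear mean and local background intensities as deposited, written by Agilent Feature Extraction (version 9.5.3.1 in the submitters' processing notes). The deposited log10 ratio of red over green is that software's own, taken per the file headers after its own background and dye corrections. Its deposited flags of 0 or 1 mark outlier, saturated and well-above-background spots. The authors' value table holds linear intensities with a floor of 15 and column medians of 130.2 at E18.5 and 129 at E14.5. Set against the scanner's processed intensity, each column was that of its own dye times a constant of unstated origin, and it was not centred.

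Mean intensities were corrected with normexp (offset 50) and normalized by loess (span 0.3, 4 iterations; control and outlier spots at weight 0, then left out) in limma 3.58.1 under R 4.3.3. The offset pulls the ratios of dim probes towards 0. Of 45018 spots 1639 were controls, and 160 of 43379 probe spots were outliers. No probe was saturated (0 probes). Repeated spots were averaged. Probes were named through RefSeq GRCm38.p6 (33096 named, 24364 of them by accession; 8074 not) and carry mm8 coordinates. A gene took the brightest of its probes that the flags put well above background in either channel or both. A gene with its probe above background in 1 channel gave a bound, and no member (0) did. Every member is named. Of the kinesin-2, further subunit, cargo and gate, motile axoneme and transcription factor lists, the 2 largest and 2 smallest ratios are named. Ift43, Bbip1, the remaining RFX factors and some genes given for their other probes are named besides. The cell-type marker lists did not follow this rule, and for most of them only single markers are named. Calls were made at 2-fold. The number of arrays, 1, limits the precision. The normalization was tested on simulated data. The members and lists were chosen with earlier results of these data known. Alternatives covered the scanner's ratio, offset, background subtraction, centring, value table, probe choice and dim-probe filter. Python 3.11.15, numpy 2.4.6, pandas 2.3.3 and matplotlib 3.10.9 were used.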

Additional observations from a re-analysis of the deposited data

How the results depend on the processing

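No paired analysis was possible because each age had 1 sample. Under the alternatives for background correction, normalization, value table, probe choice and dim probes, 20 of the 25 members called higher kept that call in every one. The exceptions were Ift140, Hspb11, Ift20, Wdr60 and Bbs7. Of the 12 members within 2-fold, 8 stayed there in every one, Cluap1, Bbs4, Arl6 and Lztfl1 excepted. The members called higher numbered 21 with the scanner software's ratio, 21 with the value table and 28 with median centring. Those called lower numbered 0 with median centring and 0 with the median over probes, where Mkks was at -0.40. The genes called lower numbered 2691 with the scanner software's ratio, against 1738. The median of all genes was -0.05 with that ratio, against 0.06. With the probe of smallest absolute ratio, an unplanned choice made after seeing the data, 17 members were called higher and 0 lower, Bbs7 was at -0.33 and Mkks at 0.21. The 8 that lost the call were Ift140, Wdr19, Ift46, Ift172, Dync2h1, Wdr60, Bbs7 and Bbs9, some of them among the largest ratios. The medians were then 0.92 for all members, 0.083 for IFT-A, 0.99 for IFT-B2 and 1.17 for dynein-2, by construction the probe nearest 0. A single array without a dye swap limits every ratio, and the probes of Bbs1 and Bbs7 are dim.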
